A study of Mus musculus with 4 samples.

Results

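The neurotrophins are secreted growth factors that keep neurons alive and shape their synapses. Mature neurotrophins signal through the Trk receptor tyrosine kinases, and all of them also bind the p75 receptor, while the uncleaved pro-forms act through p75 together with sortilin. In the hippocampus, brain-derived neurotrophic factor and its receptor TrkB are known for their part in synaptic plasticity. Bdnf is also a textbook case of alternative promoters, since several alternative 5′ exons are spliced to the same coding exon. Described here are 7 genes of this system, the ligand genes Bdnf, Ntf3 and Ntf5, the Trk receptor genes Ntrk2 and Ntrk3, the p75 gene Ngfr, and Sort1, which encodes sortilin. Their regions were the entries of the deposited list that overlapped a gene span in the GENCODE M21 annotation of mm10 plus 5 kb on both sides. This gave 7 regions, of 45855 in all.

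The list comes from chromatin immunoprecipitation and sequencing of H3K9ac, acetylation of lysine 9 of histone H3, a mark of active promoters and enhancers, in HT22 cells, an immortalised mouse hippocampal line. The supplemented cells had 70 µM choline chloride and the control cells 5 µM, each for 48 h, and both grew in high-glucose Dulbecco's medium with fetal bovine serum, penicillin and streptomycin. The series has 4 libraries, 2 of H3K9 ChIP and 2 of input DNA, which leaves no more than 1 ChIP library for a choline level, and a library's level is not in its labels. Without replicates the error of a difference between the levels is unknown, and there is no test below. The entries are regions called as unique to condition 2 or to condition 1, taken here as 70 µM and 5 µM because each region name puts 5 before 70, and every direction below rests on that. The name of the deposited list does not mention choline and sets input against H3K9ac, so from the names alone a contrast of choline levels and one of ChIP with input cannot be told apart. Under the second reading a condition 2 region would be an H3K9ac region and no direction by choline would follow. Of all regions, 45495 (99.2%) belong to 70 µM and 360 to 5 µM. Entries common to both levels are not in the list, so a gene without a region may carry H3K9ac at both levels alike or at neither. For the same reason the neuronal label of the line could not be checked by presence of the mark. The depth of the libraries is unknown. Of 8 neuronal marker genes, 3 had a listed region within 1 kb of a start (Eno2, Rbfox3 and Syn1) and 7 had one in their windows. A start-site region was also found at 1 of 3 astrocyte (Slc1a3), 2 of 4 oligodendrocyte lineage (Cspg4 and Sox10) and 1 of 3 microglia (Aif1) marker genes. The same held for 4 of 4 fibroblast marker genes (Col1a1, Col1a2, Thy1 and Twist2) and for 39.5% of all protein-coding genes.

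All 7 regions of the neurotrophin and receptor genes were called at 70 µM and 0 at 5 µM. Bdnf had 1 region, Ntf3 1, Ntrk2 2 and Sort1 3, while Ntf5, Ntrk3 and Ngfr had none. Thus 4 of 7 genes held a region, and 60.8% of 21938 protein-coding genes did so in windows drawn the same way, so the share of the 7 genes lay near that of all genes. A 5 µM region stood in the windows of 1.75% of protein-coding genes. All 7 regions lay inside the gene spans and 0 in the flanks. Of them, 6 lay wholly in introns and 1, at Bdnf, ran from a first exon into the intron after it. No share over the whole list stands beside these counts of spans, flanks, introns and exons. The flanks, 5 kb on each side of a gene, are a small part of windows that cover 1177 kb in all. The closest region outside a window lay 5252 bp upstream of the start of Ngfr, 252 bp beyond the limit.

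The sequences below, read 5′ to 3′ on the strand of the gene from the RefSeq GRCm38.p6 genome, show the DNA at the regions discussed first. They are the intronic part of the Bdnf region and the 250 bases before the first of the 2 starts of the Bdnf promoter closest to it. The others are the regions of Ntf3, Ntrk2 and the start of Sort1. Capitals mark the AP-1 site TGACTCA on either strand, the motif of those searched that occurred among them.
Bdnf, upstream of promoter 7 (chr2:109694159-109694408, plus strand): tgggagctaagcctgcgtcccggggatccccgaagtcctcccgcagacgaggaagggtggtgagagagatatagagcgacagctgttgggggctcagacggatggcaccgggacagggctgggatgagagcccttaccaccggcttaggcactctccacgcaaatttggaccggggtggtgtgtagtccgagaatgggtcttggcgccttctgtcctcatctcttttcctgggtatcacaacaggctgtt
Bdnf region, intronic part (chr2:109694622-109694719, plus strand): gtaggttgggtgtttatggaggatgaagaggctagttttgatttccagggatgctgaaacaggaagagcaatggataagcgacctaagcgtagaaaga
Ntf3 region (chr6:126103374-126103635, minus strand): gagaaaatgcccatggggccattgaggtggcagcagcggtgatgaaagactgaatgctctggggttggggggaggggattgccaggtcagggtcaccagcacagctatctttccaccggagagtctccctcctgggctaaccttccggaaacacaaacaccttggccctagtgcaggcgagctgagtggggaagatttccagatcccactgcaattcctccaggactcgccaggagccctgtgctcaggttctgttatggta
Ntrk2 region 1 (chr13:58869207-58869326, plus strand): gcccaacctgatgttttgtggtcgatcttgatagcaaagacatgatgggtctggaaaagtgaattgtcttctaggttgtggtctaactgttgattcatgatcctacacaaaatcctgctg
Ntrk2 region 2 (chr13:59024140-59024265, plus strand): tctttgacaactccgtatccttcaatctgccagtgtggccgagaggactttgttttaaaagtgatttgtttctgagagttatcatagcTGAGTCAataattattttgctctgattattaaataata
Sort1 region 1 (chr3:108285025-108285166, plus strand): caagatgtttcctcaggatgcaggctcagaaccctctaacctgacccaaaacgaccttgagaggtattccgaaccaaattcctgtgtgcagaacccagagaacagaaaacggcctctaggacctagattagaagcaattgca

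**Figure D1:**
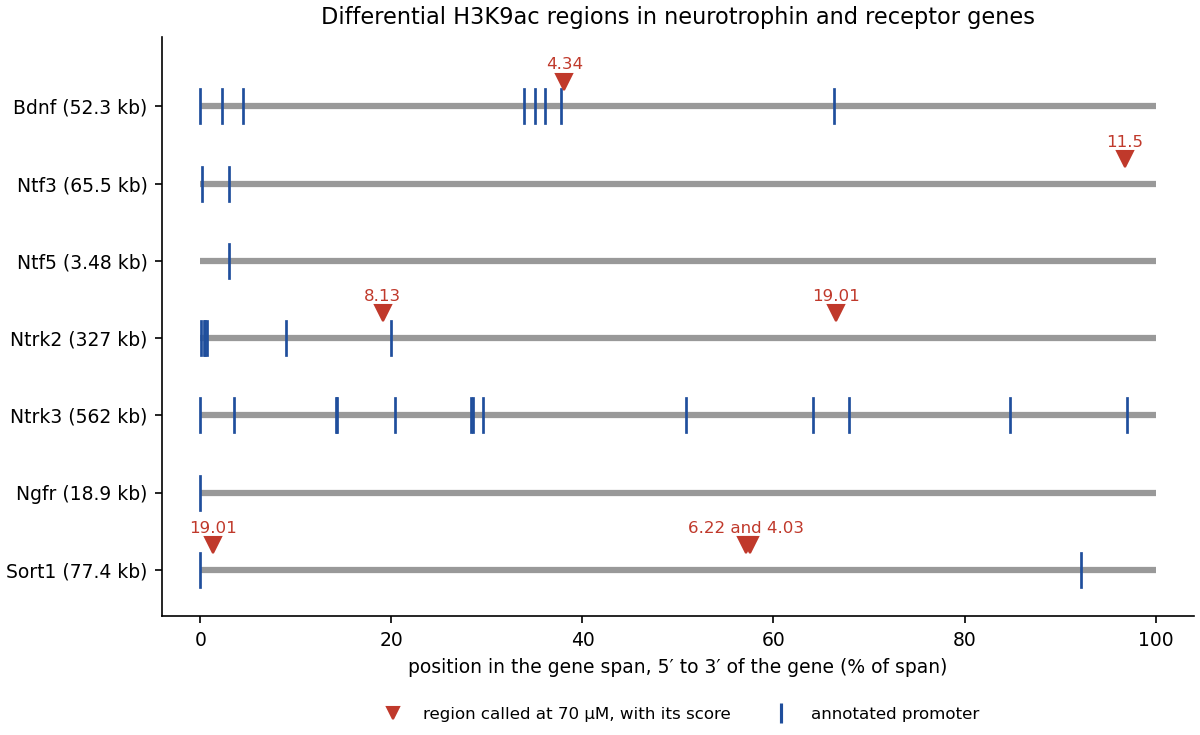
Each gene span is drawn from its 5′ to its 3′ end as 0 to 100% of its length, with annotated promoters as blue ticks and the regions called at 70 µM as red triangles under their scores in the authors' deposited table. Of the 7 regions, those of Bdnf (4.34) and of the start of Sort1 (19.01) lie within 1 kb of a promoter, that of Ntrk2 at 8.13 lies 2409 bp from one, and Ntf5, Ntrk3 and Ngfr have none.

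Bdnf was the ligand gene with a region at a promoter. Bdnf (ENSMUSG00000048482.14, chromosome 2, 109674700 to 109727007, plus strand) has 11 annotated transcripts, all protein-coding, that start at 9 positions. Starts within 300 bp of each other were counted as 1 promoter, which gave 8 promoters, numbered here in the order of transcription. Promoters 1 to 3 lie within 2.33 kb of the first start, promoters 4 to 7 lie 17.7 to 19.7 kb further on, and promoter 8 lies at 34.7 kb. The region, at 109694538 to 109694719, is 182 bp wide and begins 69 bp after the last start of promoter 7, that of transcript Bdnf-204, and so downstream of the starts of Bdnf-203 and Bdnf-204. Its first 84 bases belong to the first exon of these transcripts, which is 5′ untranslated sequence, and its other 98 bases to the intron that follows. For the 8 transcripts that start at promoters 1 to 6 the region is intronic. Promoter 6, the start of Bdnf-205, lay 975 bp upstream of the region and counted as carrying it within 1 kb, whereas promoter 5 lay 1511 bp and promoter 4 2102 bp upstream and did not. Promoters 1, 2 and 3 were 19.8, 18.6 and 17.5 kb from the region, and promoter 8 was 14.7 kb from it. So 2 of the 8 Bdnf promoters carried a region within 1 kb and 6 did not, and within 500 bp promoter 7 alone did. The score of the region in the authors' deposited table was 4.34, with 21.3% of all regions scoring lower.

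**Figure D2:**
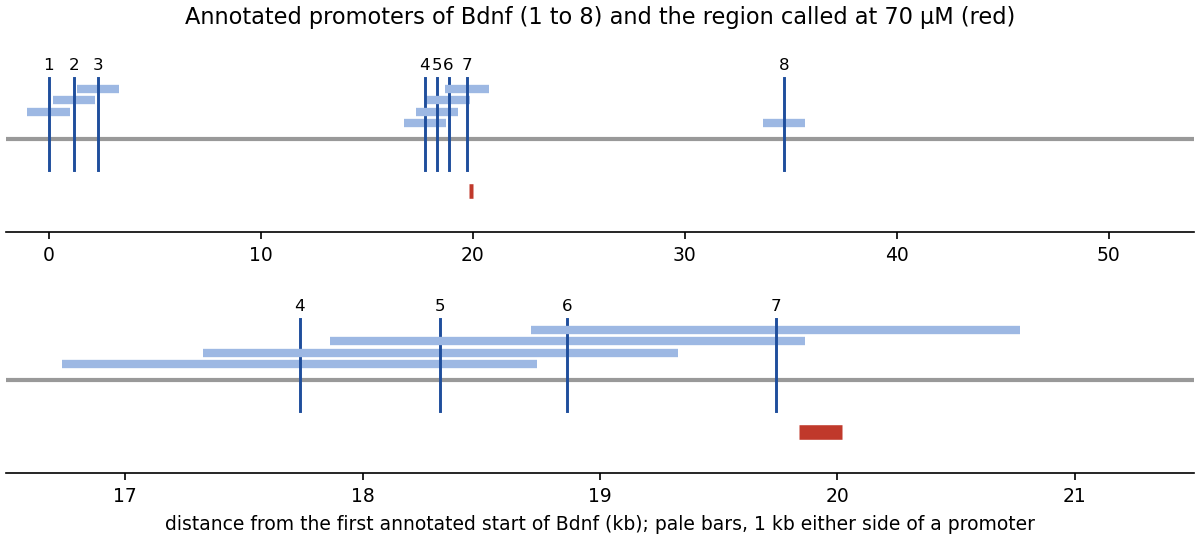
The 8 annotated promoters of Bdnf are blue ticks, placed by distance from the first start in kb, with pale bars for the 1 kb on either side, over the gene in the upper panel and around promoters 4 to 7 in the lower panel. The red bar, the region called at 70 µM, begins 69 bp after promoter 7 and reaches the end of the pale bar of promoter 6.

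The DNA around this Bdnf promoter held more CpG per length before the start than under the region. The 250 bases before the first start of promoter 7 held 13 CpG and were 59.6% G and C, against a median of 52.4% over 32851 RefSeq promoter entries of the same length. The region itself held 5 CpG and was 49.5% G and C, higher than 47.4% of the 7849 regions within 10 bp of its width. The motifs searched on both strands were the full cAMP response element TGACGTCA, its core TGACG, which the full element contains, the AP-1 site TGACTCA, the GC box GGGCGG, the E-box CACGTG and the palindromic glucocorticoid response element. None of these letters stood in the Bdnf region or in the 250 bases before promoter 7. Of the 7 promoter entries that RefSeq gives for Bdnf, 1 held TGACG in its 250 bases, that of promoter 4, the start at 109692436, and 17.8% of all promoter entries did so. GGGCGG stood before promoter 3 with 2 matches and before promoter 5 with 1, and in 32.7% of all entries. The promoters with these motifs had no region within 1 kb. Promoters 2 and 6 have no RefSeq entry at their starts, and their upstream bases were not searched. Promoter 7 was thus the only Bdnf promoter with a region whose upstream bases were searched.

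Ntf3, which encodes the main ligand of TrkC, carried its region at the far end of the gene. Ntf3 (ENSMUSG00000049107.13, chromosome 6, 126101412 to 126166910, minus strand) has 3 coding transcripts from 2 promoters. Its region, at 126103374 to 126103635, is 262 bp wide, the widest of the 7. It lies in the intron that leads to the last exon, 851 bp from that exon, after 96.8% of the gene span. The promoters were far from it, the closer one, of Ntf3-203, by 61.3 kb. A different region, upstream and outside the window, lay 29.4 kb before the first promoter, and the authors' deposited table scores it 4.01. The region in the gene scores 11.5 in the authors' deposited table, above 67.1% of all regions. It was 57.3% G and C with 5 CpG, and 46 of its bases are marked as repeats in the RefSeq genome.

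Ntf5 (ENSMUSG00000074121.3, chromosome 7, 45413695 to 45417179, plus strand), the gene of a further TrkB ligand, held no region in its window of 13.5 kb. Of the protein-coding genes with windows under 20 kb, 42.3% held one. Its single promoter, with 2 starts, had its closest region 14.4 kb away, downstream, in the direction of Ruvbl2. Among the 3 ligand genes, the region of Bdnf was thus the only one within 1 kb of a start.

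Ntrk2, which encodes TrkB, carried 2 regions deep in its introns and none at its promoters. Ntrk2 (ENSMUSG00000055254.15, chromosome 13, 58806569 to 59133970, plus strand) has 10 transcripts, 7 of them protein-coding, from 6 promoters, of which 4 lie within 2.12 kb of the first start. The first region, at 58869207 to 58869326, is 120 bp wide, the lowest width in the list, and lies 62.7 kb into the gene. It is in intron 9 or intron 8 of the coding transcripts, and 2409 bp before promoter 6, the start of Ntrk2-203, a transcript annotated as subject to nonsense-mediated decay. The 4 promoters at the 5′ end were 60.5 to 62.6 kb from it. Its score in the authors' deposited table was 8.13, above 57.2% of all regions. The second region, at 59024140 to 59024265, is 126 bp wide and lies 218 kb into the gene, 154813 bp after the first. It lies in the intron after exon 13 of Ntrk2-201 and Ntrk2-207 and 13702 bp from the nearest exon. Only these 2 of the 7 coding transcripts reach it. They encode 821 amino acids each, while the 5 that end before it encode 466 to 492. The longer form is known as the receptor with the kinase domain, and truncated TrkB forms lack that domain. The first region is spanned by all 7 coding transcripts. The score of the second region was 19.01 in the authors' deposited table, above 82.5% of all regions, but this exact score is the commonest in the list and is shared by 2552 regions (5.57%), which therefore hold the same rank. By composition it was 34.1% G and C, higher than 5.01% of the 8541 regions of like width, with 2 CpG. It held 1 AP-1 site, which begins at its base 89, a motif found in 2.61% of regions of like width.

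Ntrk3 and Ngfr, the genes of TrkC and of p75, held no region. Ntrk3 (ENSMUSG00000059146.12, chromosome 7, 78175959 to 78738012, minus strand) has the longest window of the 7 genes, 572 kb, with 20 transcripts from 13 promoters. None of the 13 promoters had a region within 44.7 kb, the distance from promoter 1 to the closest region, which lies beyond the 5′ end of the gene and 191 bp from a start of Mrpl46, a mitochondrial ribosomal protein gene. The promoters of its long coding transcripts, numbers 6 and 7, were 204 and 205 kb from any region. Among protein-coding genes with windows over 100 kb, 81.5% held at least 1 region, with a median of 3 regions. Of the 237 genes with windows over 500 kb, a limit chosen after the data were seen, 33 (13.9%) held none, as Ntrk3 did. Ngfr (ENSMUSG00000000120.6, chromosome 11, 95568818 to 95587735, minus strand) has 1 transcript, and its window of 28.9 kb was empty, while 68.4% of genes with windows of 20 to 100 kb held a region. Upstream of its start, at 95592987 to 95593196, lay the region just outside the window, 210 bp wide and called at 70 µM. Its score was 13.5 in the authors' deposited table, and no annotated start of any gene was closer to it than that of Ngfr.

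Sort1 held the most regions of the 7 genes. Sort1 (ENSMUSG00000068747.14, chromosome 3, 108284082 to 108361511, plus strand) encodes sortilin, which sorts pro-neurotrophins and forms the pro-neurotrophin receptor with p75. Its 3 regions stood in a window of 87.4 kb, which is 3.43 per 100 kb, more regions than in 66.2% of genes with windows of 20 to 100 kb and fewer than in 22.3%. The first region, at 108285025 to 108285166, is 142 bp wide and lies in intron 1, 934 bp after the start of Sort1-201. It counted as carried by promoter 1 within 1 kb but not within 500 bp. An antisense gene, Gm12523, starts 182 bp from this region, closer than any Sort1 start, and the ChIP signal has no strand, so the 2 starts cannot be told apart as its owner. Its score was the commonest one, 19.01 in the authors' deposited table. The other 2 regions lie 43.0 kb further on in intron 6, at 108328164 to 108328363 and at 108328531 to 108328697, with 167 bp between them. They had scores of 6.22 and 4.03 in the authors' deposited table, above 47.0% and 14.5% of all regions. The first of this pair lies 83 bp from the nearest exon, and the second is 62.3% G and C with 5 CpG, higher in G and C than 91.9% of regions of like width. The second of the pair also held 1 GC box, found in 7.35% of regions of like width. Promoter 2 of Sort1, the start of the non-coding transcript Sort1-202, was 26.8 kb from the closest region.

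Counted over promoters, 3 of the 33 annotated promoters of the 7 genes carried a region within 1 kb, promoters 6 and 7 of Bdnf and promoter 1 of Sort1. The share over 55941 promoters of all protein-coding genes was 23.8%. The 2 Bdnf promoters were counted from the same region. Counted over genes, 2 of 7 had a region within 1 kb of a start, against 39.5% of all protein-coding genes. Of the 33 promoters, 13 belong to Ntrk3. With the starts of protein-coding transcripts alone, 3 of 20 promoters carried a region, against 28.7% of all promoters counted in that way.

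**Figure D3:**
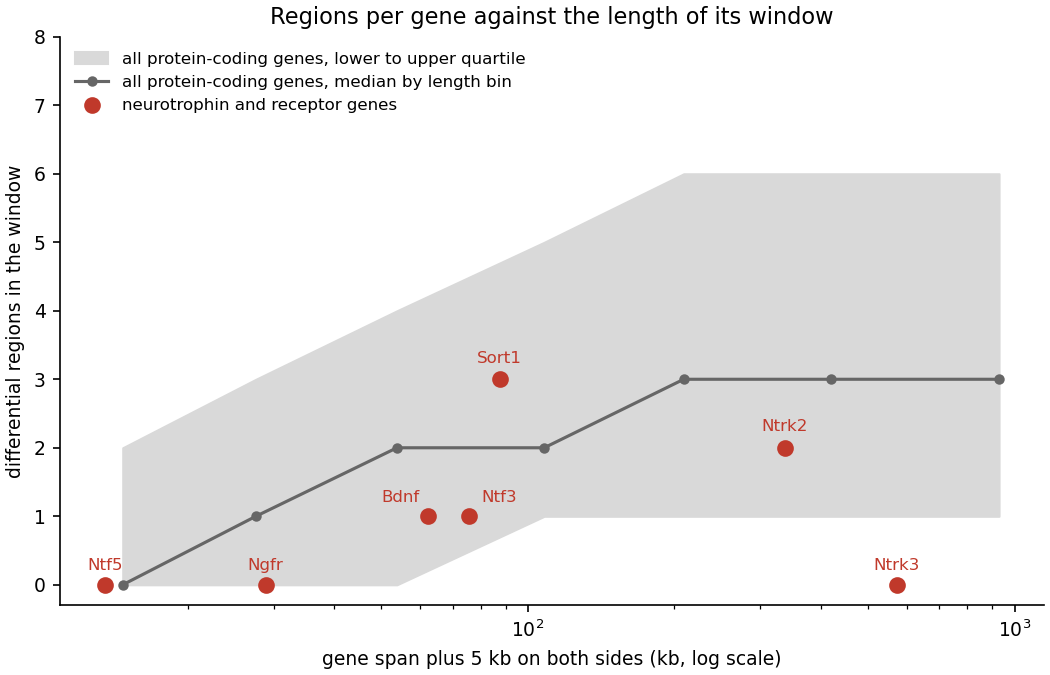
The number of differential regions in a window is plotted against the length of the window in kb on a log scale, with the 7 genes as red points and the median and quartiles of all protein-coding genes in 7 length bins in grey. Sort1 with 3 regions stands above the grey line, Ntrk2 with 2 and Bdnf and Ntf3 with 1 stand below it, and Ntrk3 stands at 0 below the grey band.

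Set per length, the 7 windows together held fewer regions than gene windows at large. They cover 1.18 Mb and held 0.595 regions per 100 kb, against 2.95 regions per 100 kb over the merged windows of all protein-coding genes. Ntrk2 (0.593 per 100 kb) and Ntrk3 (0) make up most of this length, and the windows of both are over 300 kb. The comparison with all genes is not matched for window length. Genes with windows of 320 to 640 kb, at a median length of 419 kb, had a median of 3 regions. Of genes with windows over 100 kb, 36.1% had fewer regions than Ntrk2 and 50.6% had more. Per gene, the median was 0.593 regions per 100 kb for the 7 genes and 2.4 for all protein-coding genes, while the median count was 1 region in both. The chromosomes differed widely in density, from 0.178 per 100 kb on Y and 1.05 on X to 6.32 on chromosome 15. The Sort1 window had 3.43 regions per 100 kb, against 4.02 over the gene windows of chromosome 3. The Ntrk2 window had 0.593, against 1.70 on chromosome 13. Bdnf had 1.60, against 2.37 on chromosome 2, and Ntf3 1.32, against 2.54 on chromosome 6. The empty windows of Ntf5 and Ntrk3 stand on chromosome 7, with 2.87 regions per 100 kb, and that of Ngfr on chromosome 11, with 5.65. Whether the density of a chromosome has a part in these counts was not tested.

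By score the 7 regions stood above 14.5 to 82.5% of the list. Their median score was 8.13 and that of all regions 6.64 in the authors' deposited table, where scores ran from 3.08 to 44.48. Of the 7 regions, 4 stood at or above the median of the list and 3 below it. Their widths ran from 120 to 262 bp with a median of 167 bp, and the median over the list was 170 bp. The median share of G and C was 48.5% in the 7 regions and 50% in the list, and CpG counts had medians of 3 and 2. Repeat-marked bases occurred in 3 of the 7 regions and in 59.2% of all regions, and no region of the 7 was repeat for as much as 50% of its bases, against 14.0% of all regions. Among regions at the commonest score 24.8% were so, but both of the 7 that carried this score had 0 repeat-marked bases.

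**Figure D4:**
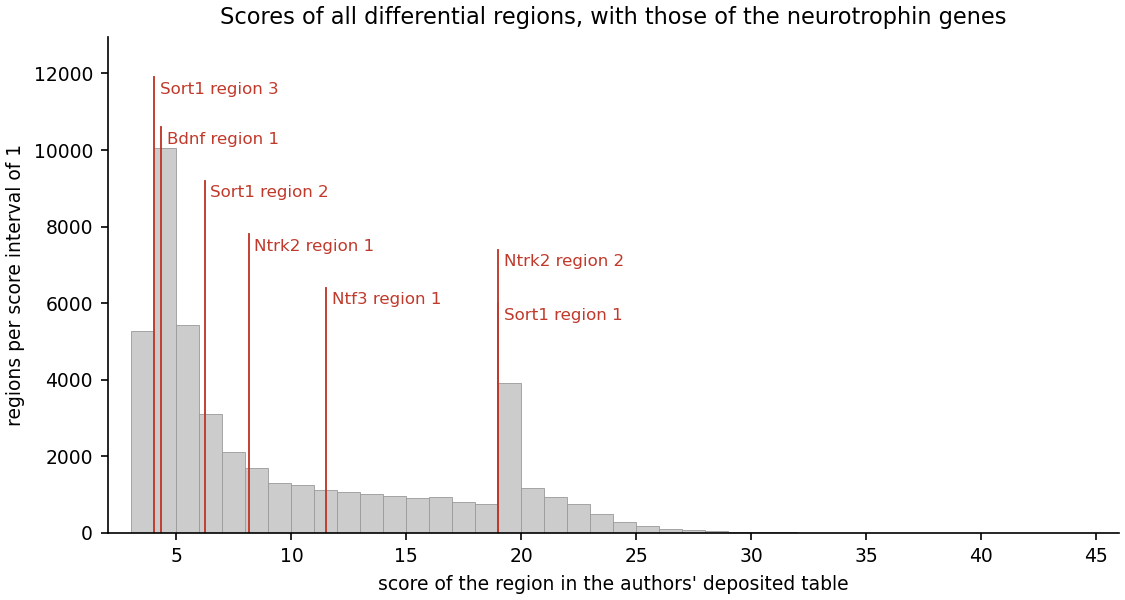
Grey bars count all 45855 regions by their score in the authors' deposited table in steps of 1, and red lines mark the 7 regions of the neurotrophin and receptor genes. The lines run from 4.03 to 19.01, and those of Ntrk2 region 2 and Sort1 region 1 fall together on the peak at 19.01 that 2552 regions share.

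The other genes of the pathway were counted by role, and no difference between roles was tested. Over a list of 87 genes in 7 roles, 47 had a region within 1 kb of a start (54%), against 39.5% of all protein-coding genes, and 77 (88.5%) held one in the span plus 5 kb, against 60.8%. These shares are not matched for window length or for the number of annotated promoters per gene. A gene with more promoters has more places where a region can count. The genes were listed with earlier results of these data known. Of all protein-coding genes, 42.3% with windows under 20 kb held a region. The share was 68.4% for windows of 20 to 100 kb and 81.5% for windows over 100 kb. In the authors' deposited table, the strongest start-site regions of the listed genes had a median score of 6.62. Over all 8665 genes with a start-site region the median was 5.68. These scores are the highest of each gene and are not matched for the number of regions per gene. The median number of regions in a window was 3 for the listed genes and 1 for all protein-coding genes. Of 7 other receptors and co-receptors, which are Sorcs1, Sorcs2, Sorcs3, Sorl1, Lingo1, Rtn4r and Kidins220, 0 had a region at a start, though all 7 held 1 to 5 in their windows. The sortilin relative Sorcs2 held 5 and Lingo1, a partner of p75, 4. Among 10 proteases that cut pro-neurotrophins, 1 had a start-site region, Plat, which encodes tissue plasminogen activator (score 6.21 in the authors' deposited table). Furin, whose product cuts pro-neurotrophins inside the cell, and Mmp3 were among the 9 without one.

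The remaining roles are those of proteins inside the cell. Of 13 genes of Ras and the MAP kinases 11 had a start-site region, where the authors' deposited table gives 22.83 at the ribosomal S6 kinase gene Rps6ka2 and 8.70 at Braf, and Nras and Rps6ka1 were the exceptions. Of 18 Trk adaptors 10 had one, led in the authors' deposited table by Frs3 (14.37), Grb2 (12.59) and Shc1 (8.12), whereas Frs2 and Gab1 had none. Of 13 genes of PI3 kinase, Akt and phospholipase C 8 had one, led there by the catalytic subunit gene Pik3ca (21.58), Akt2 (12.05) and Gsk3b (7.15), and Akt1 and Pik3cb had none. Among 16 adaptors and effectors of p75 11 had one, with Traf4 (15.43), Irak1 (12.56) and Prdm4 (9.73) in the lead in the authors' deposited table and Adam17 and Bex3 without. Of 10 transcriptional regulators of Bdnf 6 had one, led in the authors' deposited table by Mef2d (22.79), Hdac5 (16.59) and Crebbp (11.76), the gene of the CREB-binding protein, while Crtc1, which encodes a coactivator of CREB, had none. All of these scores belong to 70 µM regions, and 2 of the 87 genes held a 5 µM region in their windows.

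**Figure D5:**
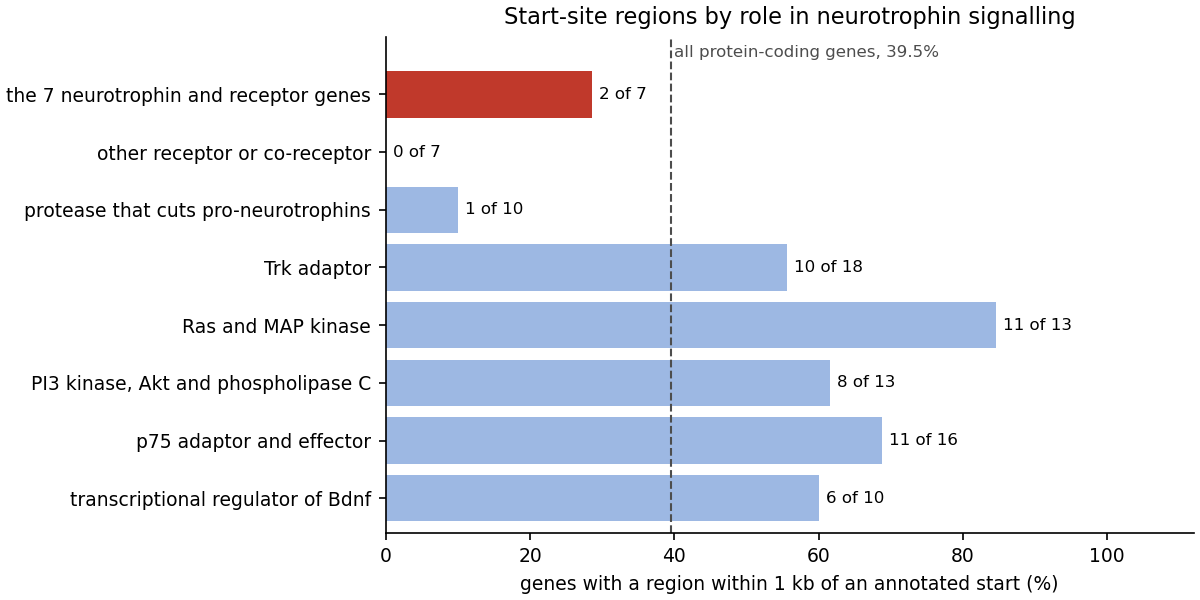
Bars give the percentage of genes with a region within 1 kb of an annotated start by role in neurotrophin signalling, with the number of genes at each bar and the share of all protein-coding genes, 39.5%, as the dashed line. The 7 neurotrophin and receptor genes (2 of 7), the other receptors (0 of 7) and the proteases (1 of 10) lie left of the line and the other roles right of it.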

How the data were processed

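H3K9ac ChIP and input libraries of HT22 cells gave 1 deposited list of regions. The tools named are CASAVA 1.8, Bowtie 1.0.0 and MACS2, with mm10 as the build, per the submitters' processing notes, and per the series' design text MACS2 bdgdiff called the differences. Per the file headers the list holds regions unique to either condition. Its only value is the authors' deposited score per region, which has no name in the file, and is the authors' own. How the libraries were scaled before the call is not given, and the part of depth in the excess of 70 µM regions was not tested.

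Regions were counted by overlap of at least 1 bp with gene spans plus 5 kb and with 1000 bp either side of starts in GENCODE M21 (pandas 2.3.3, numpy 2.4.6), on the same build as the files, and no region ended beyond its chromosome. The counting was tested on simulated data. Sequences are from RefSeq GRCm38.p6 (pysam 0.24.0), with promoter entries for 4 of the 7 genes. Coordinates count from 1. Genes named were the 7 genes and, per role, up to 3 with the highest start-site scores and up to 2 without a start-site region in alphabetical order, and the other receptor genes, the neighbours and Gm12523 were added to show whole groups or overlaps. Some genes of these pathways are not reported here and were left out of the lists and counts. The genes and lists were chosen with earlier results of these data known. Other flanks, start windows, score limits and transcript sets were tried.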

Additional observations from a re-analysis of the deposited data

How the results depend on the processing

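The counts over the 7 genes rest on few regions. With regions at or above the median score, 4 of the 7 regions, 1 promoter (7.7% of all promoters) and 22 of the 87 pathway genes were left, against 14.6% of all genes. The Bdnf region and the Sort1 pair scored below that median. With 5 µM regions alone the 7 windows held 0 regions and 0 genes had one, and without chromosome 3, an alternative chosen after seeing the data, 4 regions were left. The promoters carrying a region numbered 1 with start windows of 500 bp (17.3% of all promoters), 6 with 2500 bp (32.8%), 1 by the midpoint of the region (22.8%), and 5 of 46 when each start was counted alone (32.5%). Each of the 24 other recounts of these results was within 1.5 times its value in the report. Ngfr gained 1 region with flanks of 10 kb. No paired analysis was possible because the list has no value for a single library, and for the same reason no library could be left out.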

Other observations

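The neighbours of the neurotrophin genes were looked at after the data were seen. The numbers of regions within 50 kb have no count around other genes beside them, so whether they are high or low cannot be said. Within 50 kb of Ntf5 lay 19 regions, all outside its window, and 7 of its 10 protein-coding neighbours there had a region within 1 kb of a start, as 39.5% of all protein-coding genes did. Among these were Snrnp70, a gene of the spliceosome, with 5 of its 9 promoters, Ruvbl2, a gene of an AAA-type ATPase, with 4 of 7, and Ftl1 and Bax, which encode ferritin light chain and an effector of apoptosis, with 2 of 2 each. The potassium channel gene Kcna7 and Lhb, which encodes the beta chain of luteinising hormone, flank Ntf5 and had none. At Ntrk3 the 2 coding neighbours, Mrpl46 and Mrps11, both had one. The region 191 bp from a start of Mrpl46 lies within 1 kb of a start of each of them, so neighbours can be counted from the same region. At Sort1, Psrc1 and Celsr2 had one and Psma5 and Mybphl had none, and 7 regions lay within 50 kb outside the window. Ntrk2 had no region within 50 kb beyond its own 2, and the next one lay 182 kb from the gene.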
